A study of Mus musculus with 20 samples.

Results

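The 58 genes of mitosis described here encode the cyclin B and Cdk1 engine of mitotic entry, the mitotic kinases, the centromere and kinetochore, the spindle checkpoint, the anaphase-promoting machinery, condensin, the spindle and the cytokinetic ring. They were chosen by name for these functions, with earlier results of these data known. All 58 were found among the 51456 gene symbols measured. RNA came from bone-marrow-derived macrophages of mice, cultured with the growth factor CSF-1 (M-CSF) at 50 ng/ml for 6 days. It was read by stranded poly-A sequencing with paired 75-base reads. The donors were C57BL/6 mice of 4 to 5 months, with 5 animals of each genotype and their wild-type littermates given in the series' design. The R47H group held 5 libraries from mice with the R47H change knocked into Trem2 (TREM2 R47H KI), the KO group held 5 libraries from Trem2 knockout mice (TREM2 5bp KO), and the WT group held 10 libraries. The labels do not say which WT libraries were littermates of which line, so all 10 served as the control of both lines, and the 2 comparisons with WT share these libraries. All groups had the same strain and the same CSF-1 culture.

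Trem2 binds lipids at the surface of macrophages and microglia and passes the signal on by the adaptor Tyrobp. Its R47H form is known from human genetics as a risk variant for Alzheimer's disease. CSF-1 drives both the survival and the division of macrophage precursors in bone marrow cultures, so some cells of such a culture can be cycling when the RNA is taken. A cell enters mitosis when cyclin B and Cdk1 become active, attaches its chromosomes to the spindle through kinetochores built on centromeric chromatin, and waits under the spindle checkpoint until every kinetochore is attached. The anaphase-promoting complex with Cdc20 then marks securin and cyclin B for destruction, separase opens cohesin, and the cell divides at the cytokinetic furrow. Transcripts of most of these genes accumulate late in the cell cycle, and many of their promoters are known to carry a CHR element and CCAAT boxes.

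Trem2 itself had 673, 772, 794, 496 and 527 FPKQ in the R47H libraries and 24.1, 23.7, 24.8, 24.1 and 23.8 FPKQ in the KO libraries. Trem2 ran from 691 to 901 FPKQ in the WT libraries, with a median of 811. The KO libraries were far below all others, R47H libraries 1, 4 and 5 were below every WT library, and the log2 difference from WT was -0.33 ± 0.089 in R47H (SE, limma adjusted p = 0.0110) and -5.004 ± 0.089 in KO (SE, limma adjusted p = 2.30e-20). Levels are in FPKQ, a unit named by the authors without a definition and treated here as scaled to gene length, and log2 differences are of log2(FPKQ + 1). A gene was called when its limma p, adjusted over the 10843 genes that averaged 1 FPKQ or more, was under 0.05. From the steps between low values, 1 FPKQ in a gene of 2 kb stood for 52.5 ± 3.61 fragments in R47H, 51.7 ± 3.85 in KO and 60.9 ± 5.11 in WT (SD over 5, 5 and 10 libraries). This number was alike in the mutants and a little higher in WT, and it depends on the scaling as well as on depth. Summed over genes with a single transcript, estimated fragments ran from 2.80e+06 to 3.30e+06 in R47H, 2.86e+06 to 3.47e+06 in KO and 2.79e+06 to 3.73e+06 in WT. All 58 genes passed the filter, and 3 of them had a mean under 1 FPKQ in R47H, 15 in KO and 0 in WT.

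The promoters of 3 genes that fell in both mutants and of Ncapg2, which fell in neither, are shown from 120 bases before the start to the base before it, 5′ to 3′ on the gene's strand, from RefSeq in build GRCm38.p6. Capitals mark TTTGAA or its reverse complement TTCAAA, the core of the CHR element, and CCAAT or its reverse complement ATTGG, the CCAAT box. Cdk1, Ube2c and Cdc20 are examples of the genes that fell and do not stand for all of them.
Cdk1, chr10:69352913-69353032, minus strand: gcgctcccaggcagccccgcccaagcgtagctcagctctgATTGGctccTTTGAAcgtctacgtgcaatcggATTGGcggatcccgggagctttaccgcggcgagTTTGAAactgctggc
Ube2c, chr2:164769809-164769928, plus strand: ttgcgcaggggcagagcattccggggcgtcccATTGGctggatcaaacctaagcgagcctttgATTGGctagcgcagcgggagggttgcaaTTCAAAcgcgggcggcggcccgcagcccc
Cdc20, chr4:118437344-118437463, minus strand: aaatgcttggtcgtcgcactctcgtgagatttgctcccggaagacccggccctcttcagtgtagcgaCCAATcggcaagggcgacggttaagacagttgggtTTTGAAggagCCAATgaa
Ncapg2 is the gene with the larger of the 2 rises in KO.
Ncapg2, chr12:116405316-116405435, plus strand: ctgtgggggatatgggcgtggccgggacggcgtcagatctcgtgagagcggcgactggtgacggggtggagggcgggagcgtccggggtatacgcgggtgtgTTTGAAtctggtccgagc

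Within these stretches Cdk1 held 2 matches to the CHR core and 2 to the CCAAT box, Ube2c and Cdc20 each held 1 and 2, and Ncapg2 held 1 and 0. The RefSeq start of each lies a short way inside the gene as GENCODE M21 draws it, so the last bases shown are part of the gene there. In the whole RefSeq window, from 250 bases before to 50 after the start, 50 of the 58 genes had 55 entries. A match to TTTGAA on either strand was in 35 of these 55 windows (63.6%), against 17.9% of all 32851 windows in the table. A match to CCAAT on either strand was in 41 of 55 windows (74.5%), against 37.4% of all windows, and at least 2 matches were in 49.1%, against 11.7%. Both motifs, which can share at most an end base, were in 30 of 55 windows (54.5%) and in 6.95% of all windows. Among genes that fell in both mutants, Birc5, Plk4, Mad2l1, Nuf2, Nusap1, Ncaph, Melk and Tacc3 held neither motif in the whole window. Ccnb1, which also fell, held 0 matches to TTTGAA and 2 to CCAAT. Cenpa, which rose in KO, held 1 match to TTTGAA and 2 to CCAAT in its whole window. Whether motifs differ between genes that fell and genes that rose was not tested. These are matches of letters, not measured binding sites.

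The mitosis genes were low in both Trem2 mutants and lowest in the KO. In R47H, 54 of the 58 were called lower than in WT and 0 higher, where 7.83% of all tested genes were called lower and 13.4% higher. In KO, 55 of the 58 were called lower and 2 higher, where 23.7% of all tested genes were called lower and 28.2% higher. The median log2 difference of the 58 genes from WT was -0.90 in R47H and -1.68 in KO, beside 0.039 in R47H and 0.014 in KO over all tested genes. All 5 libraries lay below all 10 WT libraries for 49 genes in R47H and 55 in KO, and 3.14% of all tested genes did so in R47H and 13.3% in KO. In bulk RNA, fewer dividing cells and less of these RNAs per dividing cell cannot be told apart.

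Scaling moved the balance of calls over all genes. When every library was scaled to an equal sum, 476 genes were called higher and 1824 lower in R47H, against 1452 higher and 849 lower as deposited, and quantile normalization gave 1013 higher and 1071 lower. In KO, equal sums gave 1999 genes higher and 3539 lower, against 3063 higher and 2573 lower as deposited. With equal sums the median log2 difference over all tested genes was -0.070 in R47H and -0.059 in KO, and that of the 58 genes -0.98 in R47H and -1.75 in KO. Of the 58 mitosis genes, 56 in R47H and 55 in KO were called lower with equal sums.

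5 genes departed from the rest and were set apart after their values were seen. Ncapg2 and Cenpa were higher in KO than in WT, Pttg1 was not called in either mutant, and the falls of Bub3 in KO and of Incenp in both mutants were small. The other 53 genes stood at 34.3 to 73.0% of the WT mean in R47H, with a median of 45.0%, and at 8.88 to 57.1% in KO, with a median of 19.6%. These shares describe genes picked by their values. Added up, all 58 genes reached 468 ± 49.5 FPKQ in R47H (SD, n = 5), 313 ± 11.9 FPKQ in KO (n = 5) and 797 ± 57.8 FPKQ in WT (n = 10), and the 53 alone 330.4 ± 50.7 FPKQ in R47H, 155 ± 6.58 FPKQ in KO and 654 ± 56.3 FPKQ in WT.

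**Figure D1:**
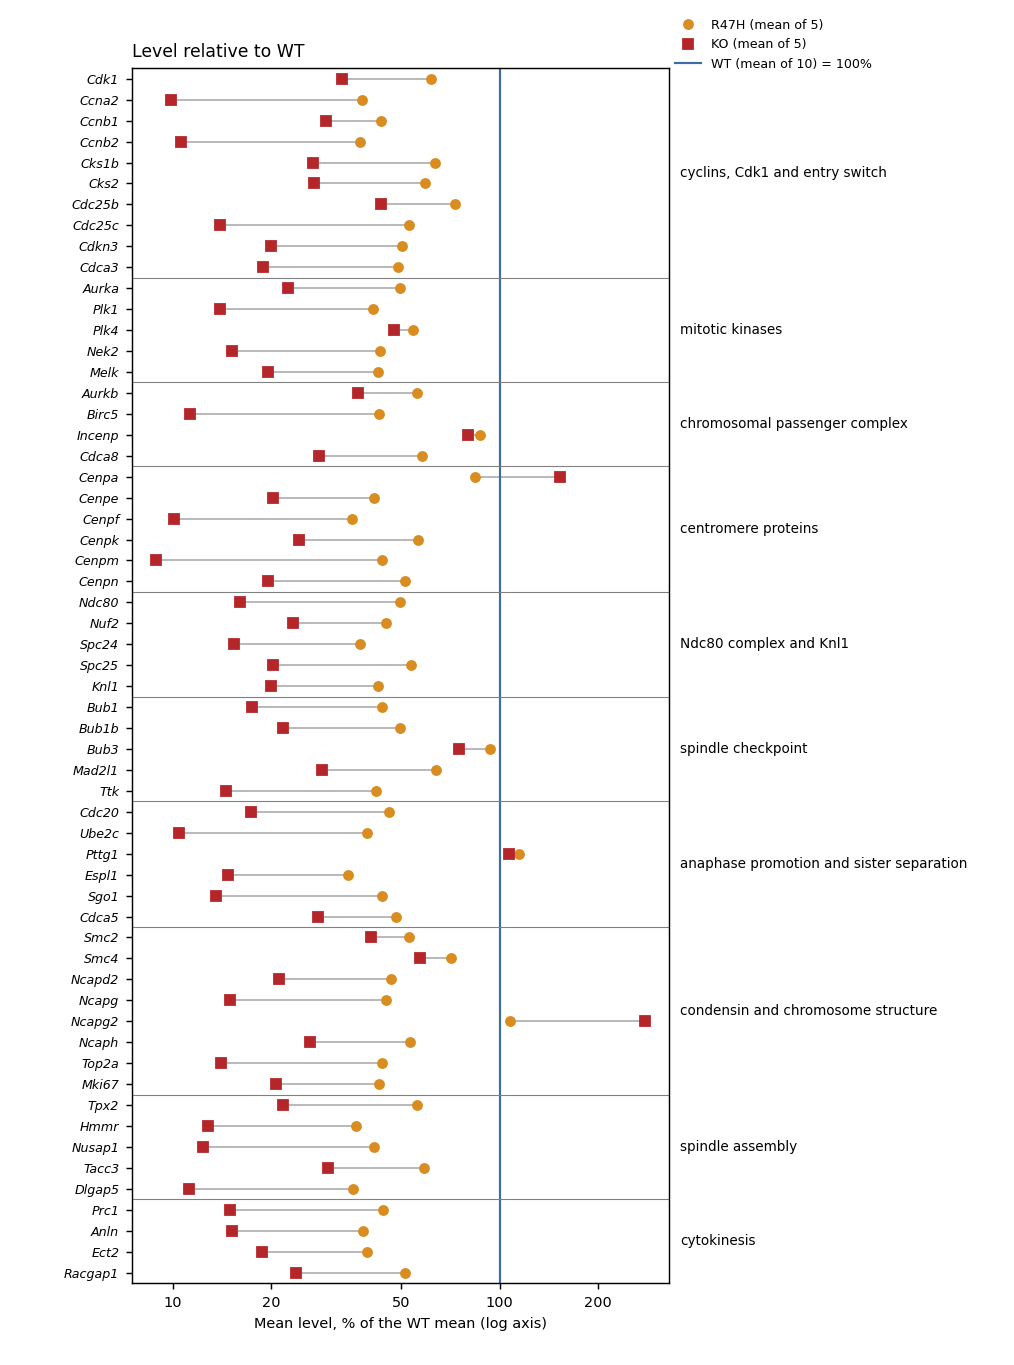
Mean level of each of the 58 genes as a percentage of the mean of 10 WT libraries (log axis, WT at 100%), with R47H as orange circles and KO as red squares (means of 5 libraries), grouped by role. For 55 of the 58 genes the R47H mean lies above KO and below WT, and Ncapg2 and Cenpa are the genes with a KO square well to the right of 100%.

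The 10 genes of the mitotic entry switch were all called lower in both mutants, with a median log2 difference from WT of -0.74 in R47H and -1.64 in KO. Cdk1, the kinase that starts mitosis, had 23.2, 16.7, 21.8, 15.7 and 15.4 FPKQ in the R47H libraries and 11.1, 9.74, 10.1, 9.83 and 9.05 FPKQ in the KO libraries. Cdk1 ran from 25.6 to 33.8 FPKQ in the WT libraries, with a median of 30.6. The 3 groups did not overlap, with R47H between KO and WT, and the log2 difference from WT was -0.69 ± 0.085 in R47H (SE, limma adjusted p = 4.14e-06) and -1.51 ± 0.085 in KO (SE, limma adjusted p = 3.16e-12). Ccnb1, cyclin B1 and a partner of Cdk1, had 7.16, 4.22, 6.17, 7.89 and 5.96 FPKQ in the R47H libraries and 4.27, 3.81, 5.11, 3.51 and 4.63 FPKQ in the KO libraries. Ccnb1 ran from 12.1 to 16.3 FPKQ in the WT libraries, with a median of 14.8. Every mutant library was below every WT library, while R47H and KO overlapped, and the log2 difference from WT was -1.11 ± 0.10 in R47H (SE, limma adjusted p = 7.93e-08) and -1.56 ± 0.10 in KO (SE, limma adjusted p = 1.89e-11). The other B-type cyclin of dividing cells, Ccnb2, had 11.2, 6.19, 8.10, 7.99 and 6.47 FPKQ in the R47H libraries and 1.74, 1.93, 3.47, 1.80 and 2.36 FPKQ in the KO libraries. Ccnb2 ran from 18.3 to 25.7 FPKQ in the WT libraries, with a median of 21. Its log2 difference from WT was -1.33 ± 0.12 in R47H (SE, limma adjusted p = 9.45e-08) and -2.80 ± 0.12 in KO (SE, limma adjusted p = 7.21e-14), the largest of this group in both mutants, and its level was 37.4% of the WT mean in R47H and 10.6% in KO. Cyclin A2, Ccna2, which pairs with Cdk1 and Cdk2 before mitosis, was close to it at 37.8% of the WT mean in R47H and 9.88% in KO.

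Cdc25b and Cdc25c are phosphatases that remove the inhibitory phosphates from Cdk1. Cdc25b had 15.7, 15.7, 17.3, 16.2 and 14.3 FPKQ in the R47H libraries and 10.1, 9.19, 8.99, 9.77 and 8.8 FPKQ in the KO libraries. Cdc25b ran from 19.2 to 23.9 FPKQ in the WT libraries, with a median of 21.6. The 3 groups did not overlap for Cdc25b, and its log2 difference from WT was -0.43 ± 0.056 in R47H (SE, limma adjusted p = 1.01e-05) and -1.13 ± 0.056 in KO (SE, limma adjusted p = 5.59e-13). Cdc25c had 1.01, 0.691, 1.31, 0.664 and 0.759 FPKQ in the R47H libraries and 0.116, 0.393, 0.263, 0.233 and 0.162 FPKQ in the KO libraries. Cdc25c ran from 1.14 to 2.29 FPKQ in the WT libraries, with a median of 1.67. It was the lowest gene of the group in WT, and R47H overlapped WT while KO did not, with log2 differences from WT of -0.51 ± 0.10 in R47H (SE, limma adjusted p = 8.56e-04) and -1.11 ± 0.10 in KO (SE, limma adjusted p = 5.76e-09). Cks1b, a small subunit that binds cyclin-dependent kinases, had 20.9, 18.1, 22.2, 14.3 and 16.5 FPKQ in the R47H libraries and 8.68, 7.56, 4.21, 8.76 and 9.58 FPKQ in the KO libraries. Cks1b ran from 23.9 to 34.1 FPKQ in the WT libraries, with a median of 28.2. Its 3 groups did not overlap, and the log2 difference from WT was -0.64 ± 0.13 in R47H (SE, limma adjusted p = 0.00119) and -1.81 ± 0.13 in KO (SE, limma adjusted p = 1.65e-10). The other 3 genes of the group, Cks2, Cdkn3 and Cdca3, stood at 59.1% of the WT mean in R47H and 27% in KO for Cks2, 50.4% of the WT mean in R47H and 19.9% in KO for the phosphatase Cdkn3, and 48.8% of the WT mean in R47H and 18.9% in KO for Cdca3. Of the 10, Cks2 and Cdc25c were those whose R47H libraries overlapped WT.

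**Figure D2:**
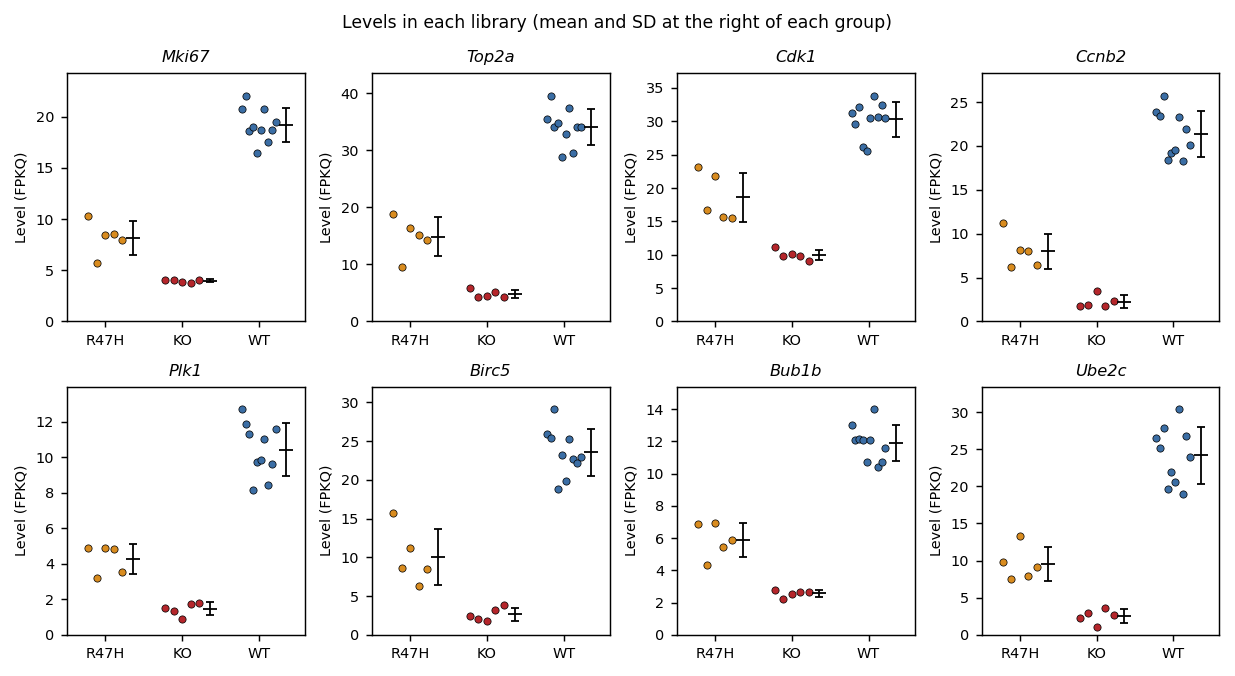
Level (FPKQ, from 0) of 8 mitosis genes in each library of R47H (5, orange), KO (5, red) and WT (10, blue), with the mean and SD at the right of each group. In all 8 panels the R47H points lie between the KO and the WT points without overlap.

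Of the 5 other mitotic kinases, all were called lower in both mutants, with a median log2 difference from WT of -0.95 in R47H and -1.71 in KO. Plk1, which acts at centrosomes, kinetochores and the midbody, had 4.91, 3.19, 4.88, 4.81 and 3.55 FPKQ in the R47H libraries and 1.53, 1.32, 0.890, 1.73 and 1.80 FPKQ in the KO libraries. Plk1 ran from 8.17 to 12.7 FPKQ in the WT libraries, with a median of 10.4. The groups were apart, and the log2 difference from WT was -1.12 ± 0.11 in R47H (SE, limma adjusted p = 2.22e-07) and -2.22 ± 0.11 in KO (SE, limma adjusted p = 4.80e-13). Plk4, the kinase of centriole duplication, had 4.22, 2.61, 3.14, 2.94 and 2.6 FPKQ in the R47H libraries and 2.82, 2.12, 2.83, 3.05 and 2.68 FPKQ in the KO libraries. Plk4 ran from 4.41 to 6.76 FPKQ in the WT libraries, with a median of 5.88. Its R47H and KO libraries overlapped while both lay below WT, and the log2 difference from WT was -0.71 ± 0.093 in R47H (SE, limma adjusted p = 9.43e-06) and -0.85 ± 0.093 in KO (SE, limma adjusted p = 1.10e-07). Plk4 had a log2 difference of R47H from KO of 0.14 ± 0.11 (SE, limma adjusted p = 0.312) and a 95% interval of -0.085 to 0.36. Aurka, the spindle pole kinase, stood at 49.6% of the WT mean in R47H and 22.5% in KO. Nek2, a centrosome kinase, stood at 42.9% of the WT mean in R47H and 15.1% in KO, and Melk at 42.3% of the WT mean in R47H and 19.5% in KO.

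The chromosomal passenger complex corrects faulty attachments at the centromere and later acts at the midzone. Its 4 subunits were called lower in both mutants but differed in size. Birc5, or survivin, had 15.8, 8.61, 11.2, 6.27 and 8.45 FPKQ in the R47H libraries and 2.44, 1.98, 1.82, 3.18 and 3.83 FPKQ in the KO libraries. Birc5 ran from 18.8 to 29.1 FPKQ in the WT libraries, with a median of 23.1. The 3 groups did not overlap, and the log2 difference from WT was -1.2 ± 0.15 in R47H (SE, limma adjusted p = 5.67e-06) and -2.77 ± 0.15 in KO (SE, limma adjusted p = 2.01e-12). Aurkb, the kinase of the complex, had 8.51, 6.05, 7.71, 9.60 and 6.48 FPKQ in the R47H libraries and 5.97, 4.99, 4.21, 6.90 and 3.32 FPKQ in the KO libraries. Aurkb ran from 12.5 to 15.3 FPKQ in the WT libraries, with a median of 13.8. KO and R47H overlapped for Aurkb, both were below WT, and the log2 difference from WT was -0.78 ± 0.11 in R47H (SE, limma adjusted p = 2.38e-05) and -1.31 ± 0.11 in KO (SE, limma adjusted p = 1.95e-09). Incenp, the scaffold that binds and activates Aurkb, had 31.5, 29.5, 31.4, 31.9 and 31.2 FPKQ in the R47H libraries and 28.2, 29.8, 29.6, 29.9 and 26.1 FPKQ in the KO libraries. Incenp ran from 31.1 to 39.9 FPKQ in the WT libraries, with a median of 36.1. In R47H 4 of the 5 libraries lay within the lower part of the WT range, the KO libraries lay below it, and the log2 difference from WT was -0.20 ± 0.053 in R47H (SE, limma adjusted p = 0.0113) and -0.31 ± 0.053 in KO (SE, limma adjusted p = 4.85e-05). Against WT Rep6 to Rep10 alone the R47H fall of Incenp was not called, at -0.17 (limma adjusted p = 0.0846). Cdca8, or borealin, stood at 57.7% of the WT mean in R47H and 27.9% in KO, beside 86.8% of the WT mean in R47H and 80.1% in KO for Incenp.

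The 6 centromere genes held the first of the 2 rises. Cenpa, the histone H3 variant that marks the centromere, had 18, 27.9, 22, 18 and 16.4 FPKQ in the R47H libraries and 35.7, 38.6, 37.0, 40.3 and 34.1 FPKQ in the KO libraries. Cenpa ran from 18.7 to 29.1 FPKQ in the WT libraries, with a median of 24.1. Every KO library was above every WT library, and R47H overlapped WT. The log2 difference from WT was -0.25 ± 0.11 in R47H (SE, limma adjusted p = 0.120) and 0.60 ± 0.11 in KO (SE, limma adjusted p = 1.06e-04), so the R47H value was not called as deposited, and R47H differed from KO by -0.85 ± 0.13 (SE, limma adjusted p = 2.89e-05). Cenpa was called lower in R47H with equal sums, at -0.37 (limma adjusted p = 0.0118), with array weights, at -0.39 (limma adjusted p = 0.0182), and without R47H library 2, at -0.36 (limma adjusted p = 0.0191). Cenpe, a kinesin that carries chromosomes to the spindle equator, had 3.31, 1.06, 2.01, 2.21 and 2.20 FPKQ in the R47H libraries and 1.23, 0.956, 0.753, 1.04 and 1.31 FPKQ in the KO libraries. Cenpe ran from 4.45 to 5.89 FPKQ in the WT libraries, with a median of 5.30. Both mutants lay below WT and overlapped each other, and the log2 difference from WT was -1.02 ± 0.11 in R47H (SE, limma adjusted p = 1.13e-06) and -1.60 ± 0.11 in KO (SE, limma adjusted p = 1.15e-10). Of the other 4, the kinetochore protein Cenpf stood at 35.3% of the WT mean in R47H and 10.04% in KO, and Cenpm, a part of the constitutive centromere network, at 43.5% of the WT mean in R47H and 8.88% in KO, the lowest share in KO among the 58 genes. Cenpk and Cenpn, of the same network, stood at 56.1% of the WT mean in R47H and 24.3% in KO for Cenpk and 51.4% of the WT mean in R47H and 19.6% in KO for Cenpn.

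Hjurp, Mis18a and Oip5, which act in the loading of Cenpa, were lower, not higher, in KO. Hjurp, the chaperone that deposits Cenpa, averaged 11.4 FPKQ in R47H, 9.67 FPKQ in KO and 16.5 FPKQ in WT, a log2 difference of KO from WT of -0.71 ± 0.063 (SE, limma adjusted p = 3.93e-09). Mis18a and Oip5 belong to the complex that prepares centromeres for Hjurp. They averaged 16.2 FPKQ in R47H, 12.3 FPKQ in KO and 18.8 FPKQ in WT for Mis18a and 1.66 FPKQ in R47H, 0.621 FPKQ in KO and 4.83 FPKQ in WT for Oip5. Both were called lower in KO, at log2 differences of -0.56 ± 0.11 (SE, limma adjusted p = 1.31e-04) for Mis18a and -1.88 ± 0.14 (SE, limma adjusted p = 4.24e-10) for Oip5. Hjurp and Mis18a were singled out after their values were seen.

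Ndc80, Nuf2, Spc24 and Spc25 form the complex that holds microtubules at the kinetochore, and Knl1 is the platform on which checkpoint proteins gather. All 5 were called lower in both mutants. Ndc80 had 7.08, 5.18, 6.68, 5.77 and 4.87 FPKQ in the R47H libraries and 1.41, 1.51, 1.78, 2.59 and 2.34 FPKQ in the KO libraries. Ndc80 ran from 9.51 to 14.7 FPKQ in the WT libraries, with a median of 12.3. The groups were apart, and the log2 difference from WT was -0.91 ± 0.10 in R47H (SE, limma adjusted p = 1.61e-06) and -2.16 ± 0.10 in KO (SE, limma adjusted p = 3.44e-13). Knl1 had 1.15, 0.466, 0.760, 0.940 and 1.11 FPKQ in the R47H libraries and 0.259, 0.373, 0.474, 0.479 and 0.496 FPKQ in the KO libraries. Knl1 ran from 1.73 to 2.50 FPKQ in the WT libraries, with a median of 2.07. At these low levels R47H and KO overlapped, both below WT, and the log2 difference from WT was -0.72 ± 0.086 in R47H (SE, limma adjusted p = 2.53e-06) and -1.13 ± 0.086 in KO (SE, limma adjusted p = 3.77e-10). The partners of Ndc80 fell as well, with Nuf2 at 44.8% of the WT mean in R47H and 23.3% in KO, Spc24 at 37.3% of the WT mean in R47H and 15.4% in KO and Spc25 at 53.7% of the WT mean in R47H and 20.3% in KO.

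Among the 5 spindle checkpoint genes, Bub3 stood apart from the other 4. Bub1b, or BubR1, a part of the inhibitor of the anaphase-promoting complex, had 6.85, 4.33, 6.93, 5.44 and 5.86 FPKQ in the R47H libraries and 2.81, 2.24, 2.50, 2.67 and 2.65 FPKQ in the KO libraries. Bub1b ran from 10.4 to 14 FPKQ in the WT libraries, with a median of 12.1. No group overlapped another, and the log2 difference from WT was -0.92 ± 0.081 in R47H (SE, limma adjusted p = 7.38e-08) and -1.85 ± 0.081 in KO (SE, limma adjusted p = 8.72e-14). Mad2l1, or Mad2, the protein that captures Cdc20, had 10.4, 5.52, 8.47, 7.18 and 6.03 FPKQ in the R47H libraries and 3.24, 3.05, 3.87, 3.48 and 3.17 FPKQ in the KO libraries. Mad2l1 ran from 9.59 to 13.5 FPKQ in the WT libraries, with a median of 11.9. R47H library 1 reached the WT range, no KO library did, and the log2 difference from WT was -0.61 ± 0.10 in R47H (SE, limma adjusted p = 2.00e-04) and -1.55 ± 0.10 in KO (SE, limma adjusted p = 5.25e-11). Bub3, which brings Bub1 and Bub1b to kinetochores, had 41.2, 39.9, 44.7, 29.99 and 34.3 FPKQ in the R47H libraries and 28.4, 31.3, 30.5, 31.8 and 30.2 FPKQ in the KO libraries. Bub3 ran from 37.5 to 42.9 FPKQ in the WT libraries, with a median of 41.1. R47H libraries 1 to 3 were within or above the WT range and R47H libraries 4 and 5 were below it, with R47H library 4 within the KO range. Libraries 4 and 5 had the lowest Trem2 of the R47H group. They also had its lowest summed levels, 590190 and 607376 FPKQ against 634036 FPKQ or more. A link of Bub3 with either was not tested. The log2 difference of Bub3 from WT was -0.11 ± 0.066 in R47H (SE, limma adjusted p = 0.277) and -0.40 ± 0.066 in KO (SE, limma adjusted p = 2.39e-05), so the R47H value was not called as deposited. With every library scaled to an equal sum it was, at -0.22 (limma adjusted p = 0.00399). Bub1 stood at 43.7% of the WT mean in R47H and 17.4% in KO, and Ttk, or Mps1, the kinase that starts checkpoint signalling, at 41.7% of the WT mean in R47H and 14.6% in KO.

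The genes of anaphase promotion and sister separation split between Pttg1 and the rest. Cdc20, the activator of the anaphase-promoting complex, had 5.52, 3.70, 6.87, 4.79 and 4.11 FPKQ in the R47H libraries and 1.52, 1.86, 1.71, 2.42 and 1.97 FPKQ in the KO libraries. Cdc20 ran from 8.43 to 12.7 FPKQ in the WT libraries, with a median of 11.3. Its groups did not overlap, and the log2 difference from WT was -1.003 ± 0.11 in R47H (SE, limma adjusted p = 1.02e-06) and -2.04 ± 0.11 in KO (SE, limma adjusted p = 1.91e-12). Ube2c, the ubiquitin-conjugating enzyme that works with that complex, had 9.80, 7.45, 13.3, 7.92 and 9.18 FPKQ in the R47H libraries and 2.24, 2.94, 1.1, 3.62 and 2.72 FPKQ in the KO libraries. Ube2c ran from 19 to 30.4 FPKQ in the WT libraries, with a median of 24.6. It showed the largest log2 difference of the 58 genes in KO, and its values were -1.27 ± 0.15 in R47H (SE, limma adjusted p = 2.71e-06) and -2.87 ± 0.15 in KO (SE, limma adjusted p = 1.16e-12). Pttg1, or securin, the inhibitor of separase, had 33.8, 43.2, 39.5, 35.4 and 36.3 FPKQ in the R47H libraries and 36.1, 35.7, 33.0, 41.8 and 28.6 FPKQ in the KO libraries. Pttg1 ran from 28.8 to 35.6 FPKQ in the WT libraries, with a median of 33.5. All 3 groups overlapped, and the log2 difference from WT was 0.19 ± 0.073 in R47H (SE, limma adjusted p = 0.0729) and 0.081 ± 0.073 in KO (SE, limma adjusted p = 0.367). The 95% interval of that difference was 0.036 to 0.34 in R47H and -0.070 to 0.23 in KO. Fitted on R47H and WT alone, Pttg1 was called higher in R47H, at 0.19 (limma adjusted p = 0.0459), and it was called as well without KO library 4 or 5 or R47H library 1. Espl1, the separase that securin inhibits, stood at 34.3% of the WT mean in R47H and 14.8% in KO, the lowest share in R47H among the 58 genes. Sgo1, which protects centromeric cohesin, stood at 43.7% of the WT mean in R47H and 13.6% in KO, and Cdca5, or sororin, which stabilises cohesin, at 48.0% of the WT mean in R47H and 27.8% in KO.

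The condensin and chromosome structure group held the other rise. Mki67, the coat protein of mitotic chromosomes used as a proliferation marker, had 10.3, 5.69, 8.49, 8.51 and 7.97 FPKQ in the R47H libraries and 4.10, 4.05, 3.85, 3.79 and 4.08 FPKQ in the KO libraries. Mki67 ran from 16.5 to 22 FPKQ in the WT libraries, with a median of 18.8. The 3 groups were apart, and the log2 difference from WT was -1.15 ± 0.084 in R47H (SE, limma adjusted p = 7.27e-09) and -2.02 ± 0.084 in KO (SE, limma adjusted p = 3.57e-14). Top2a, the topoisomerase that untangles sister chromatids, had 18.8, 9.56, 16.3, 15.1 and 14.4 FPKQ in the R47H libraries and 5.87, 4.27, 4.42, 5.10 and 4.30 FPKQ in the KO libraries. Top2a ran from 28.9 to 39.6 FPKQ in the WT libraries, with a median of 34.1. It separated the groups as well, with log2 differences from WT of -1.17 ± 0.11 in R47H (SE, limma adjusted p = 9.45e-08) and -2.6 ± 0.11 in KO (SE, limma adjusted p = 3.28e-14). Smc4, a core subunit of both condensins, had 26.4, 19.98, 21.8, 25.2 and 27.7 FPKQ in the R47H libraries and 20.3, 20.1, 19.3, 19.2 and 18.4 FPKQ in the KO libraries. Smc4 ran from 31.5 to 38.1 FPKQ in the WT libraries, with a median of 33.8. Its R47H and KO libraries overlapped below WT, and the log2 difference from WT was -0.48 ± 0.060 in R47H (SE, limma adjusted p = 4.98e-06) and -0.78 ± 0.060 in KO (SE, limma adjusted p = 5.40e-10). Smc2, the partner of Smc4, stood at 52.7% of the WT mean in R47H and 40.5% in KO. The subunits that belong to condensin I only were lower still in KO, with Ncapd2 at 46.5% of the WT mean in R47H and 21.1% in KO, Ncapg at 45.0% of the WT mean in R47H and 14.9% in KO and Ncaph at 52.9% of the WT mean in R47H and 26.3% in KO.

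Ncapg2, the condensin II counterpart of Ncapg, had 10.4, 7.88, 6.83, 11.6 and 15.4 FPKQ in the R47H libraries and 28.7, 25.7, 27.5, 24.3 and 28.6 FPKQ in the KO libraries. Ncapg2 ran from 7.04 to 13.8 FPKQ in the WT libraries, with a median of 9.20. Every KO library was above every R47H and every WT library, and R47H overlapped WT on both sides. The log2 difference from WT was 0.064 ± 0.14 in R47H (SE, limma adjusted p = 0.792) and 1.4 ± 0.14 in KO (SE, limma adjusted p = 2.58e-08), and R47H differed from KO by -1.34 ± 0.16 (SE, limma adjusted p = 1.90e-06). The sign of the R47H value was not stable, at -0.11 (limma adjusted p = 0.666) against WT Rep1 to Rep5 alone. Its R47H and WT values spread more widely than those of most members, with a coefficient of variation of 32.5% in R47H, 7.15% in KO and 19.9% in WT, beside medians over the 58 genes of 21.2% in R47H, 19.9% in KO and 11.9% in WT. The other condensin II subunits did not rise. Ncapd3 averaged 3.23 FPKQ in R47H, 3.16 FPKQ in KO and 5.01 FPKQ in WT, a log2 difference of KO from WT of -0.53 ± 0.072 (SE, limma adjusted p = 2.06e-06). Ncaph2 averaged 37.8 FPKQ in R47H, 32.1 FPKQ in KO and 39.1 FPKQ in WT, with -0.28 ± 0.054 (SE, limma adjusted p = 2.09e-04) in KO. In GRCm38, Ncapg2 lies at 116405402 to 116463731 on chromosome 12, Cenpa at 30666777 to 30674830 on chromosome 5 and Pttg1 at 43420250 to 43426251 on chromosome 11. The genes Ncapg2, Cenpa and Pttg1 do not share exon bases with a protein-coding gene on the other strand in the GENCODE M21 annotation.

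**Figure D3:**
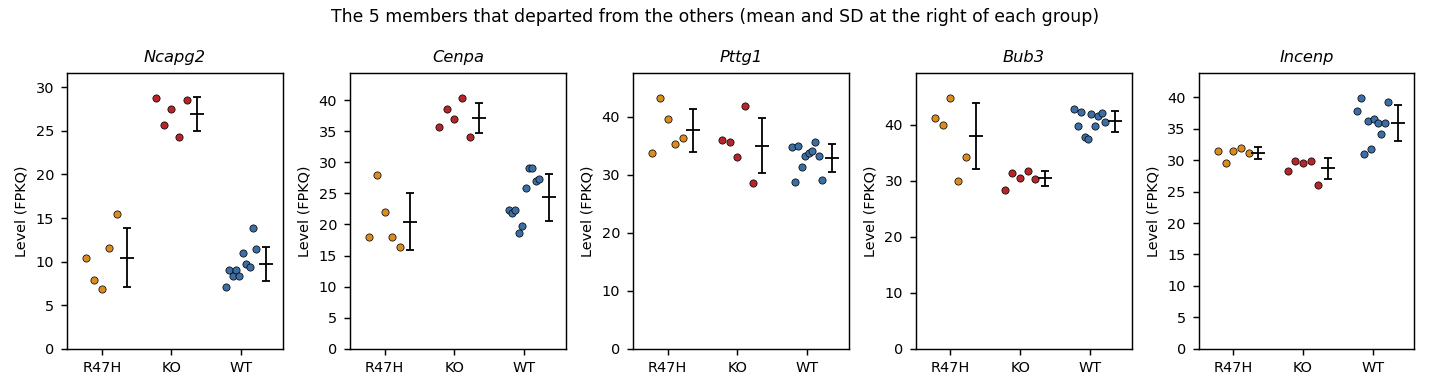
Level (FPKQ, from 0) of the 5 genes set apart, in each library of R47H (5, orange), KO (5, red) and WT (10, blue), with the mean and SD at the right of each group. KO lies above WT for Ncapg2 and Cenpa and just below WT for Bub3 and Incenp, and the groups overlap for Pttg1.

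All 5 spindle assembly genes were called lower in both mutants. Tpx2, which activates Aurka on spindle microtubules, had 8.81, 5.61, 8.07, 8.18 and 6.67 FPKQ in the R47H libraries and 2.29, 2.67, 3.18, 3.45 and 2.90 FPKQ in the KO libraries. Tpx2 ran from 11 to 14.8 FPKQ in the WT libraries, with a median of 13.8. The groups were apart, and the log2 difference from WT was -0.77 ± 0.089 in R47H (SE, limma adjusted p = 1.78e-06) and -1.88 ± 0.089 in KO (SE, limma adjusted p = 2.58e-13). Nusap1, a microtubule-binding protein of the spindle, had 5.71, 2.81, 4.92, 4.28 and 4.34 FPKQ in the R47H libraries and 1.19, 1.31, 0.819, 1.37 and 1.93 FPKQ in the KO libraries. Nusap1 ran from 7.68 to 12.5 FPKQ in the WT libraries, with a median of 11. It had the largest log2 difference of this group in KO, and its values were -1.12 ± 0.12 in R47H (SE, limma adjusted p = 7.95e-07) and -2.34 ± 0.12 in KO (SE, limma adjusted p = 1.04e-12). Tacc3, which with clathrin crosslinks kinetochore fibres, had 14.6, 11.4, 13.9, 13.8 and 11.5 FPKQ in the R47H libraries and 6.91, 7.33, 5.68, 6.55 and 6.56 FPKQ in the KO libraries. Tacc3 ran from 19.98 to 25.6 FPKQ in the WT libraries, with a median of 21.7. It had the smallest change of the group, again with no overlap, and its log2 difference from WT was -0.73 ± 0.068 in R47H (SE, limma adjusted p = 1.42e-07) and -1.61 ± 0.068 in KO (SE, limma adjusted p = 5.79e-14). Hmmr stood at 36.4% of the WT mean in R47H and 12.8% in KO, and Dlgap5, or HURP, a stabiliser of kinetochore fibres, at 35.5% of the WT mean in R47H and 11.2% in KO.

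The 4 cytokinesis genes fell in both mutants as well. Prc1, which bundles the midzone microtubules, had 8.78, 4.04, 6.24, 6.31 and 6.78 FPKQ in the R47H libraries and 2.42, 2.10, 2.62, 2.30 and 1.47 FPKQ in the KO libraries. Prc1 ran from 11.8 to 18.3 FPKQ in the WT libraries, with a median of 14.8. No group overlapped another, and the log2 difference from WT was -1.1 ± 0.12 in R47H (SE, limma adjusted p = 6.39e-07) and -2.30 ± 0.12 in KO (SE, limma adjusted p = 6.72e-13). Anln, the anillin of the contractile ring, had 3.68, 1.91, 3.49, 3.18 and 3.44 FPKQ in the R47H libraries and 1.13, 1.17, 1.43, 1.36 and 1.16 FPKQ in the KO libraries. Anln ran from 6.37 to 10.8 FPKQ in the WT libraries, with a median of 8.18. R47H lay between KO and WT without overlap, at log2 differences from WT of -1.16 ± 0.10 in R47H (SE, limma adjusted p = 9.04e-08) and -2.03 ± 0.10 in KO (SE, limma adjusted p = 9.07e-13). Ect2, which activates RhoA at the furrow, had 3.28, 1.58, 2.25, 2.30 and 2.31 FPKQ in the R47H libraries and 1.33, 0.992, 0.768, 1.31 and 1.21 FPKQ in the KO libraries. Ect2 ran from 4.62 to 7.20 FPKQ in the WT libraries, with a median of 6.05. Its mutant libraries were below WT and apart from each other, with log2 differences from WT of -1.07 ± 0.10 in R47H (SE, limma adjusted p = 1.29e-07) and -1.72 ± 0.10 in KO (SE, limma adjusted p = 5.27e-12). Racgap1, the partner that brings Ect2 to the midzone, had 12.6, 7.10, 11.8, 10.6 and 7.92 FPKQ in the R47H libraries and 4.72, 4.23, 4.21, 4.90 and 5.13 FPKQ in the KO libraries. Racgap1 ran from 17.4 to 21.3 FPKQ in the WT libraries, with a median of 19.6. It showed the same order of groups, and its log2 difference from WT was -0.93 ± 0.094 in R47H (SE, limma adjusted p = 3.34e-07) and -1.87 ± 0.094 in KO (SE, limma adjusted p = 5.82e-13).

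**Figure D4:**
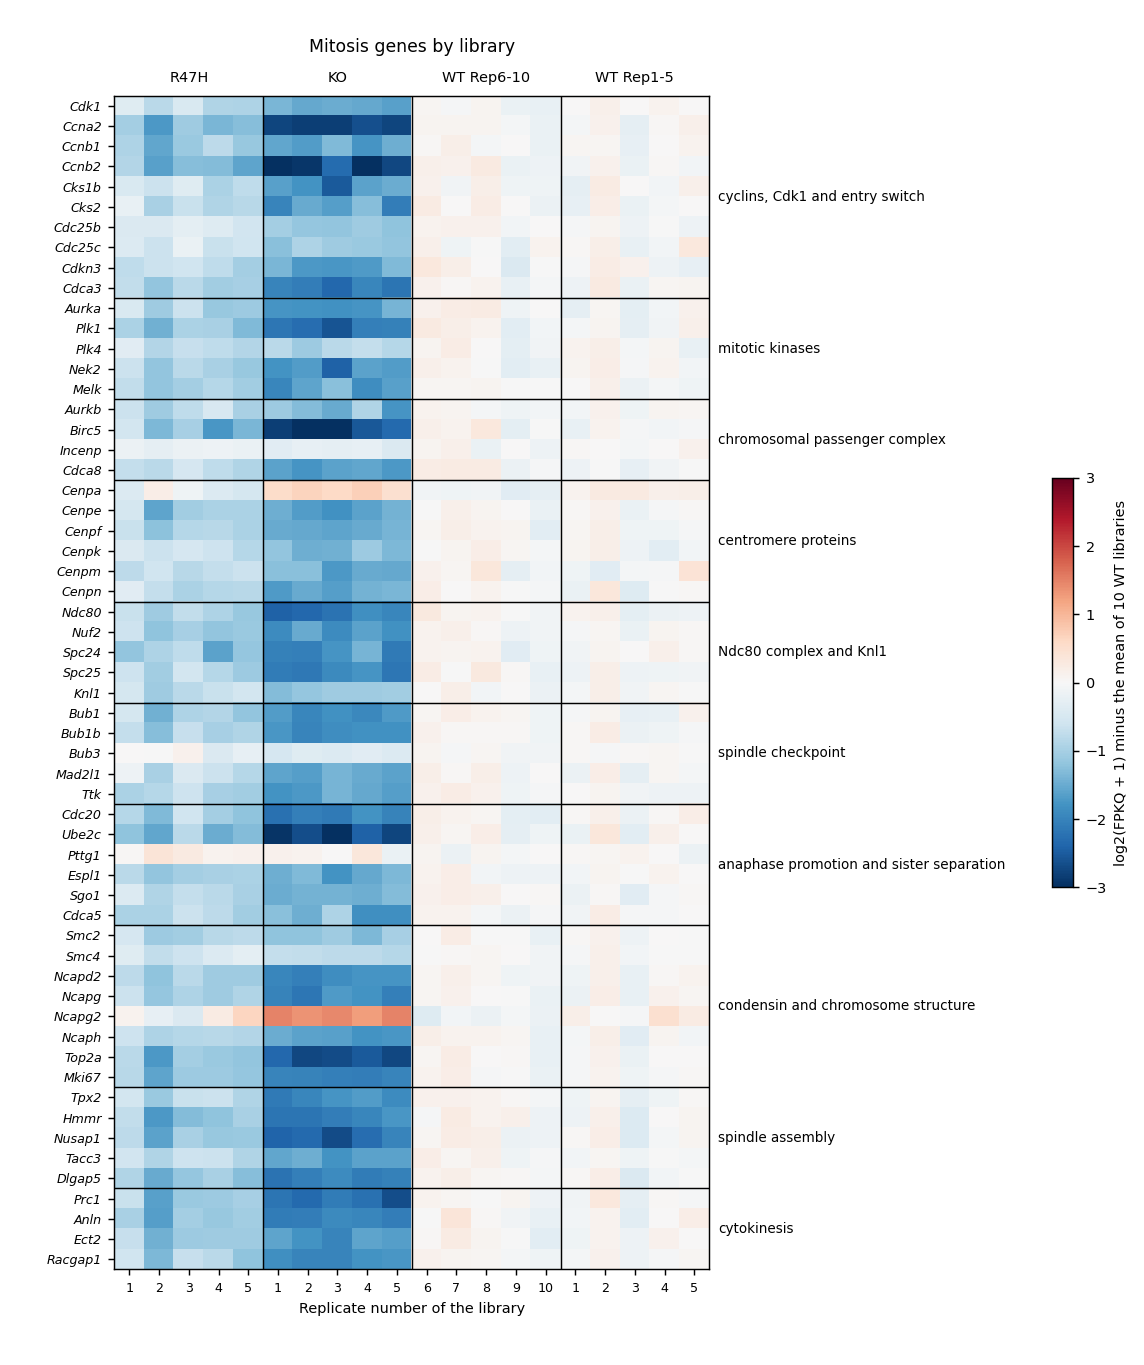
Difference of log2(FPKQ + 1) from the mean of 10 WT libraries for each of the 58 genes (rows, by role) in each library (columns, R47H, KO, WT Rep6 to Rep10, WT Rep1 to Rep5). Blue is lower and red is higher. R47H columns are pale blue in most rows, with library 2 often the darkest. KO columns are darker blue in most rows. Exceptions in KO are the rows of Cenpa, Ncapg2, Pttg1, Bub3 and Incenp, and those of Plk4 and Smc4 are paler. Both WT sets are near 0.

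By mean, R47H lay above KO and below WT for 55 of the 58 genes. Set directly against KO, 53 genes were called higher in R47H and 2, Cenpa and Ncapg2, lower, where 22.8% of all tested genes were called higher and 18.0% lower. The median log2 difference of R47H from KO was 0.82 over the 58 genes and 0.027 over all tested genes. All 5 R47H libraries were above all 5 KO libraries for 44 genes, which 12.3% of all tested genes did. Over the 53 genes the R47H mean was 1.15 to 4.90 times the KO mean, with a median of 2.43. Plk4, Incenp and Pttg1 were not called between the mutants, with log2 differences of 0.14 ± 0.11 (SE, limma adjusted p = 0.312) for Plk4, 0.11 ± 0.061 (SE, limma adjusted p = 0.143) for Incenp and 0.11 ± 0.084 (SE, limma adjusted p = 0.327) for Pttg1. The 95% intervals of these differences were -0.085 to 0.36 for Plk4, -0.014 to 0.24 for Incenp and -0.069 to 0.28 for Pttg1. When R47H was set against WT Rep6 to Rep10 and KO against WT Rep1 to Rep5, and the 2 differences were compared, 48 genes were called higher and 2 lower, and Aurkb, Ccnb1, Knl1, Smc2 and Smc4 lost their calls. With quantile normalization, calls of R47H against KO over all tested genes were 2000 higher and 2215 lower, against 2470 higher and 1947 lower as deposited, and Knl1 was not called, at 0.20 (limma adjusted p = 0.145). With equal sums Smc2 was not called, at 0.29 (limma adjusted p = 0.0521).

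Within R47H, 1 library was often the highest and 1 often the lowest. R47H library 1 was the highest of its group for 37 of the 58 genes and library 2 the lowest for 36. Trem2 was at 673 FPKQ in R47H library 1 and at 772 FPKQ in library 2. Without R47H library 2 the median log2 difference of the 58 genes in R47H was -0.84, and without library 1 it was -0.97. In KO no library was highest for more than 19 genes or lowest for more than 17. In WT, library 7 was the highest for 20 genes, library 2 for 19, and library 3 the lowest for 27.

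The 10 WT libraries carry numbers 1 to 5 and 6 to 10, and the sets were compared with each other as a measure of how far 2 groups of WT animals can differ. WT Rep6 to Rep10 differed from WT Rep1 to Rep5 by a call in 1 of the 58 genes, where 6.51% of all tested genes were called. That gene was Cenpa, at 21 ± 1.67 FPKQ in WT Rep6 to Rep10 and 27.7 ± 1.38 FPKQ in WT Rep1 to Rep5 (SD, n = 5 each), a log2 difference of -0.38 ± 0.10 (SE, limma adjusted p = 0.0242). The call was lost without WT library 2, 3, 9 or 10. Against WT Rep1 to Rep5 alone, Cenpa was called lower in R47H, at -0.44 (limma adjusted p = 0.00815). Cenpa averaged 37.2 FPKQ in KO, above both WT sets, so the size of its KO rise depends on the WT set used. Ncapg2 averaged 8.36 FPKQ in WT Rep6 to Rep10 and 11.1 FPKQ in WT Rep1 to Rep5. That log2 difference of -0.36 ± 0.14 was not called (SE, limma adjusted p = 0.143). It was called with array weights, at -0.41 (limma adjusted p = 0.0138), and when the WT sets were fitted alone (limma adjusted p = 0.0301). The median log2 difference between the WT sets was 0.024 over the 58 genes and 0.0023 over all tested genes.

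Mitosis genes outside the 58 had smaller medians. The 58 genes and these lists were chosen with earlier results of these data known, so the choice itself can make such a difference. Of 123 further genes in 7 lists, 121 were tested, with 52 lower and 2 higher in R47H and 75 lower and 5 higher in KO, and their median log2 difference from WT was -0.16 in R47H and -0.28 in KO. Over all tested genes, 7.83% were called lower and 13.4% higher in R47H, and 23.7% lower and 28.2% higher in KO. The 32 other kinetochore and centromere genes had 21 lower and 0 higher in R47H and 28 lower and 0 higher in KO. Their largest falls were those of Oip5, at 1.66 FPKQ in R47H, 0.621 FPKQ in KO and 4.83 FPKQ in WT, and of Ska2, a part of the complex that follows shrinking microtubules, at 2.13 FPKQ in R47H, 0.929 FPKQ in KO and 4.86 FPKQ in WT. Zwint, which binds Knl1, was not called in KO at 39.7 FPKQ in R47H, 37.9 FPKQ in KO and 40.3 FPKQ in WT, and was singled out after its value was seen. Exons of Oip5 and Nusap1 overlap on opposite strands, and reads of that stretch may count for either, since whether counting used strand is unknown here.

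Of 18 genes of the anaphase-promoting complex and its partners, calls were 2 lower and 0 higher in R47H and 8 lower and 1 higher in KO, beside 7.83% lower and 13.4% higher in R47H and 23.7% lower and 28.2% higher in KO over all tested genes. Fbxo5, or Emi1, an inhibitor of the complex, averaged 4.56 FPKQ in R47H, 2.58 FPKQ in KO and 8.77 FPKQ in WT, and the subunit Anapc15 averaged 78.9 FPKQ in R47H, 46.2 FPKQ in KO and 78.8 FPKQ in WT, while the subunit Anapc1 was called higher in KO at 14.3 FPKQ in R47H, 18 FPKQ in KO and 14.9 FPKQ in WT. Against the same shares of all genes, cohesin and its regulators gave 4 lower and 0 higher in R47H and 5 lower and 1 higher in KO of 14. Esco2, the acetyltransferase of cohesin in S phase, averaged 1.59 FPKQ in R47H, 0.507 FPKQ in KO and 4.01 FPKQ in WT, and Sgo2a, a protector of cohesin, 1.60 FPKQ in R47H, 0.737 FPKQ in KO and 3.38 FPKQ in WT. The cohesin loader Nipbl was called higher in KO at 14.9 FPKQ in R47H, 18.6 FPKQ in KO and 14.6 FPKQ in WT. Both condensin II genes of the list, Ncapd3 and Ncaph2, were called lower in KO, and 1 of them, Ncapd3, in R47H.

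Spindle and centrosome genes gave 14 lower and 1 higher in R47H and 17 lower and 2 higher in KO of 28, where 7.83% of all tested genes were lower in R47H and 23.7% in KO, which are also the shares beside the next lists. Ckap2l averaged 2.91 FPKQ in R47H, 1.15 FPKQ in KO and 7.85 FPKQ in WT, and Ckap2 2.79 FPKQ in R47H, 0.943 FPKQ in KO and 5.84 FPKQ in WT, both spindle-binding proteins. The genes called higher in KO were Tacc1, at 23.1 FPKQ in R47H, 25.2 FPKQ in KO and 22.9 FPKQ in WT, and the microtubule-tip protein Clasp2, at 15.2 FPKQ in R47H, 20.9 FPKQ in KO and 15.8 FPKQ in WT. Other switches of mitotic entry and exit gave 7 lower and 1 higher in R47H and 10 lower and 1 higher in KO of 18. The Cdk1-inhibiting kinase Pkmyt1 averaged 6.67 FPKQ in R47H, 2.90 FPKQ in KO and 12 FPKQ in WT, and Cdca2, which targets a phosphatase to chromatin at mitotic exit, 1.81 FPKQ in R47H, 0.681 FPKQ in KO and 4.07 FPKQ in WT. Ensa, an inhibitor of a mitotic phosphatase once phosphorylated, averaged 77.9 FPKQ in R47H, 71.9 FPKQ in KO and 65.0 FPKQ in WT. It was called higher in KO, and its R47H mean was higher still. Further cytokinesis genes gave 3 lower and 0 higher in R47H and 5 lower and 0 higher in KO of 9 tested, among them Shcbp1 at 2.44 FPKQ in R47H, 0.709 FPKQ in KO and 5.62 FPKQ in WT and Iqgap3 at 3.25 FPKQ in R47H, 2.47 FPKQ in KO and 5.98 FPKQ in WT.

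**Figure D5:**
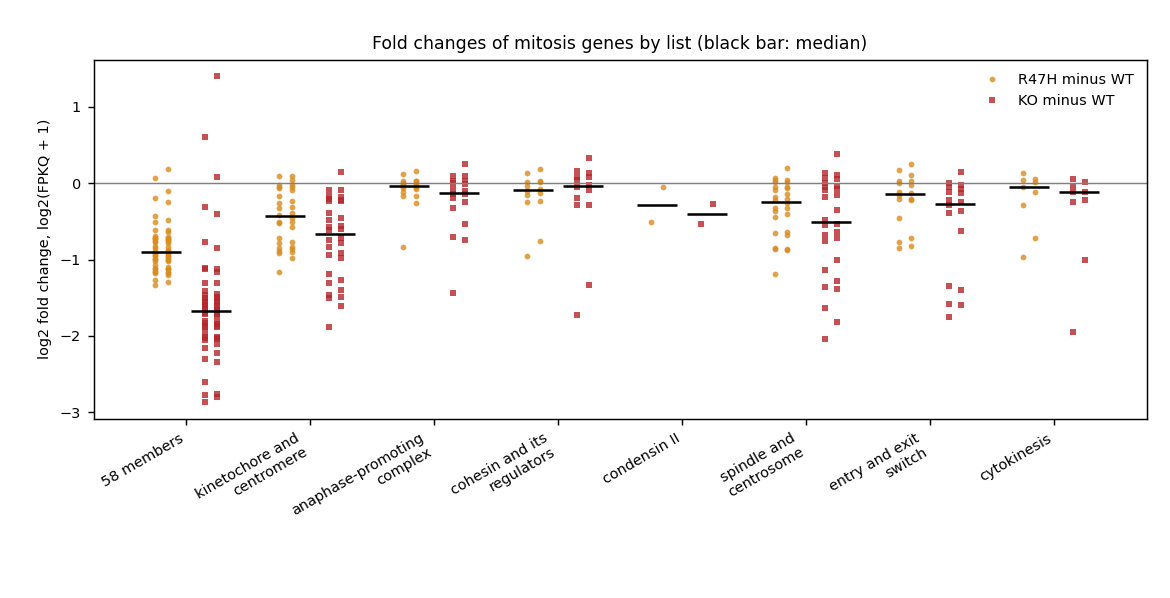
Log2 fold change from WT of each tested gene of the 58 and of 7 further lists of mitosis genes, R47H minus WT as orange circles and KO minus WT as red squares, with a black bar at each median. The medians of the 58 genes, -0.90 in R47H and -1.68 in KO, lie below those of every other list. All lists were chosen with earlier results of these data known.

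The libraries carried the markers of macrophages at high levels. The summed level of 10 macrophage markers, mostly from Lyz2, was 27845 to 31100.1 FPKQ in R47H. The sum was 33943 to 36449 FPKQ in KO and 24489 to 27945 FPKQ in WT. Calls among the 10 were 2 lower and 5 higher in R47H and 3 lower and 5 higher in KO. They stood beside 7.83% lower and 13.4% higher in R47H and 23.7% lower and 28.2% higher in KO over all tested genes. Lyz2, lysozyme, averaged 23932 FPKQ in R47H, 29652 FPKQ in KO and 20996 FPKQ in WT, the CSF-1 receptor Csf1r 1085 FPKQ in R47H, 1308 FPKQ in KO and 935 FPKQ in WT, and Cd14 581 FPKQ in R47H, 301 FPKQ in KO and 731 FPKQ in WT. Of 10 neutrophil markers 6 were tested, with 0 lower and 2 higher in R47H and 0 lower and 2 higher in KO, and the list summed to 88.0 to 154 FPKQ in R47H, 102 to 132 FPKQ in KO and 73.2 to 109 FPKQ in WT, with Ly6g listed at 0 in KO and WT. The neutrophil marker S100a9 averaged 47.5 FPKQ in R47H, 33.9 FPKQ in KO and 33.6 FPKQ in WT and was called in neither mutant. Csf3r averaged 43.1 FPKQ in R47H, 55.6 FPKQ in KO and 29.8 FPKQ in WT and was called higher in both, and Mmp8 averaged 1.79 FPKQ in R47H, 4.26 FPKQ in KO and 1.35 FPKQ in WT and was called higher in KO. The 10 markers of myeloid progenitors summed to 5.34 to 9.71 FPKQ in R47H, 6.63 to 8.99 FPKQ in KO and 5.22 to 7.92 FPKQ in WT, of which Kit was tested, at 3.69 FPKQ in R47H, 3.13 FPKQ in KO and 4.42 FPKQ in WT and called lower in KO, and Mpo averaged 0.822 FPKQ in R47H, 1.1 FPKQ in KO and 0.438 FPKQ in WT.

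Markers of T and NK cells summed to 0.566 to 0.781 FPKQ in R47H, 0.407 to 0.820 FPKQ in KO and 0.631 to 1.30 FPKQ in WT, with Cd3e at 0 in both mutants. Those of B cells summed to 9.41 to 11.8 FPKQ in R47H, 18.1 to 22.6 FPKQ in KO and 5.97 to 8.30 FPKQ in WT, mostly from Cd22, while the B cell factor Pax5 was at or under 0.00850 FPKQ on average in each group. The dendritic cell list summed to 37.5 to 53.2 FPKQ in R47H, 38.6 to 56.5 FPKQ in KO and 28.8 to 87.1 FPKQ in WT, mostly from Itgax. The erythroid list summed to 1.07 to 1.84 FPKQ in R47H, 2.39 to 2.70 FPKQ in KO and 0.507 to 1.39 FPKQ in WT, with Slc4a1 at 0 in all groups. Its 1 tested member, the erythropoietin receptor Epor, was called higher in both mutants, at 1.17 FPKQ in R47H, 1.86 FPKQ in KO and 0.532 FPKQ in WT. Megakaryocyte markers summed to 12.3 to 29.5 FPKQ in R47H, 19.3 to 34.3 FPKQ in KO and 15.3 to 23.6 FPKQ in WT, mostly from Pf4, which was called in neither mutant, while Ppbp was called higher in KO, at 1.01 FPKQ in R47H, 2.98 FPKQ in KO and 0.636 FPKQ in WT. Stromal markers summed to 0.311 to 1.08 FPKQ in R47H, 0.883 to 2.17 FPKQ in KO and 0.306 to 0.780 FPKQ in WT, with Col1a1 at or under 0.0440 FPKQ on average in each group and Dcn, or decorin, at 0.183 FPKQ in R47H, 0.719 FPKQ in KO and 0.106 FPKQ in WT. The part of these cell types in the mitosis results was not tested.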

How the data were processed

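Each of the 20 libraries had 1 deposited table of gene symbols and levels, in a unit the authors name FPKQ, treated here as FPKM-like. No source used here gives its definition. In every library the 71.5% quantile of protein-coding genes lay at 9.96 to 10.01 FPKQ. RSEM and the build GRCm38 are named in the submitters' processing notes, with no settings. The deposited FPKM-like values summed to 556288 to 680147 per library. Total counts were not used. The size of 1 fragment was read from the steps between low values of single-transcript genes, where 86.1 to 89.8% of values came out whole within 0.1 of a fragment. This gives the number of fragments behind 1 FPKQ, which depends on the scaling as well as on depth. It covers counting error only.

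Log2(FPKQ + 1) was fitted with limma 3.58.1 in R 4.3.3 (lmFit, eBayes with trend) in 1 model of R47H, KO and WT, for the 10843 genes that averaged 1 FPKQ or more. The pseudocount of 1 understates changes of low genes. P-values were adjusted by Benjamini-Hochberg over all tested genes and called under 0.05. A model with WT Rep6 to Rep10 and WT Rep1 to Rep5 as separate groups compared the WT sets. The fit was tested on simulated data. No 2 libraries held identical values. Alternatives were the WT set, pseudocount, filter, scaling, weights, fit, leaving out each library, and a replicate block.

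The 58 genes and all lists were chosen with earlier results of these data known. Values of every library are given for well-known genes of each role, for the genes with the largest and smallest change in KO per role, and for genes that were called higher or not called. Of the further lists, the 2 largest falls and rises called in KO are named. Of the 58 genes, 11 share 53 to 944 exon bases with a protein-coding gene on the other strand in GENCODE M21 (Nusap1 with Oip5, for example), and no source used here says whether counting used strand. Promoter windows of 8 of the 58 genes were not analysed here.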

Additional observations from a re-analysis of the deposited data

Results flagged for a closer look

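In 5 of 174 sets of 1 gene in 1 group, the highest or lowest library was far from the next one, measured as that gap over the range of the group. Chance gives about 1 in 20. Anln in R47H was at 1.91 FPKQ in library 2 and 3.18 to 3.68 FPKQ in the other 4, a gap of 0.759 of the range. Incenp in R47H was at 29.5 FPKQ in library 2 and 31.2 to 31.9 FPKQ in the other 4, a gap of 0.717. Aurka in KO was at 2.64 FPKQ in library 5 and 1.74 to 1.82 FPKQ in the other 4, a gap of 0.892. Nek2 in KO was at 0.184 FPKQ in library 3 and 0.823 to 1.08 FPKQ in the other 4, a gap of 0.763. Dlgap5 in WT was at 4.10 FPKQ in library 3 and 5.58 to 6.92 FPKQ in the other 9, a gap of 0.579.

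The change from WT differed between R47H and KO for 55 of the 58 genes by the limma test of R47H against KO, with 53 higher and 2 lower in R47H. Both changes were taken from the same WT libraries, so this is the difference between the mutants themselves. The same test called 4417 of all 10843 tested genes, 22.8% higher and 18.0% lower in R47H.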

How the results depend on the processing

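In KO against WT no tested mitosis gene changed its call under any alternative or left-out library. Over all tested genes, comparing the differences from separate WT sets called 1559 genes between R47H and KO, against 4417 directly. The WT sets gave 2221 calls with array weights, 1429 when fitted alone and 417 to 893 without 1 library, against 706, of which mitosis genes were 3, 2 and 0 to 1, and 0 with no filter. A filter at a mean of 5 FPKQ left 37 of the 58 genes, with 33 called lower in R47H, 34 lower in KO, and 33 higher in R47H than in KO. Of all 8234 genes tested with that filter, 544 were called lower in R47H and 1984 lower in KO. Higher calls in R47H than in KO were 2028 of these 8234. The median log2 difference of the 58 genes in KO, -1.68, was -1.62 against WT Rep1 to Rep5, -1.74 against WT Rep6 to Rep10, -1.75 with equal sums, -1.81 at a mean of 5 FPKQ and -2.24 with a pseudocount of 0.1, which also gave 1.14 for R47H against KO. Leaving out 1 library gave medians of -0.97 to -0.84 in R47H and -1.70 to -1.65 in KO. Ncapg2 in R47H, not called under any alternative, was -0.11 against WT Rep1 to Rep5 and -0.045 with equal sums, and -0.079 to 0.19 without 1 library. The cause of these shifts was not tested.

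Replicate numbers 1 to 5 showed no common pairing of the libraries: correlations of same-numbered deviations were -0.25 to 0.34, and 5 of 15 were over 0.1. Number 2 gave 0.34 for KO with WT, 0.22 for R47H with WT and 0.31 for R47H with KO. WT Rep6 to Rep10 were not set against either line, so pairing is not excluded. A block over the numbers gives WT Rep6 to Rep10 numbers of their own, so that fit sets the mutants against WT Rep1 to Rep5 only. With this replicate block the medians, -0.87 in R47H and -1.62 in KO, and Ncapg2 in R47H, -0.11, were those against WT Rep1 to Rep5 without it. Calls over all tested genes were 1802 in R47H and 4398 in KO with the block, and 1958 in R47H and 4508 in KO without it, and no call of the 58 genes differed between them.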
